A study of Homo sapiens with 24 samples.

Results

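The H3K27ac landscape of DCIS shCTRL cells consisted of 15482 regions of the genome at which chromatin pulled down with an antibody against H3K27ac was compared with input chromatin. All regions of its comparison with input were taken, whatever their values. They made up 15482 of the 76271 regions in the 4 comparisons with input that the series holds. Of these, 15480 (100% after rounding) were enriched, with a deposited false discovery rate (FDR) under 0.05 and the direction up. The other 2 had FDRs of 0.217 and 0.228 and no window called up, and were left out of everything that follows.

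The study placed a hairpin against ANCO1 (ANKRD11, a chromatin-bound corepressor), or a control hairpin, in human mammary epithelial lines and profiled H3K27ac in each. The 10A line (MCF10A) is a non-cancerous mammary epithelial line. The DCIS line (MCFDCIS) is its tumor-forming descendant, obtained by putting an oncogene into 10A cells and growing them in mice, and it stands for a lesion still confined to the duct. Both lines are triple-negative, lacking hormone receptors and extra copies of the HER2 gene. The DCIS shCTRL cells carried a lentiviral pLKO.1 hairpin against GFP and had been selected with puromycin, so this control is not an uninfected culture. They gave 3 H3K27ac and 3 input libraries. The landscapes set beside it came from 10A shCTRL cells, with the same GFP hairpin, and from DCIS shANCO1 and 10A shANCO1 cells, with a hairpin against ANCO1. Each of these also had 3 H3K27ac and 3 input libraries, out of 24 libraries in 8 groups. Nothing in the labels said that the 3 libraries of a group came from separate cultures. All cells were grown as lines, so the landscape holds no stromal or immune cells of a tumor.

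Acetylation of lysine 27 of histone H3 is laid down by the acetyltransferases EP300 and CREBBP and removed by histone deacetylases. It marks nucleosomes beside active promoters and active enhancers, and the DNA that transcription factors occupy lies in the nucleosome-poor gap between marked nucleosomes. Enhancer marking differs between cell types far more than promoter marking does, so the landscape of a cell line carries a record of its lineage and of the signals it receives. In breast epithelium the mark is found at keratin, laminin and integrin genes in basal cells and at the hormone receptor program in luminal cells.

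Each region was a run of adjoining windows, and its strength was given as the log2 fold change over input of 1 representative window. Its FDR came from the authors' test of the 3 H3K27ac against the 3 input libraries. No value per library was in the table, so no spread between replicates can be printed beside a region. The table held almost no weak regions. Every enriched region had all of its windows up, the lowest log2 fold change was 2.16 (4.47-fold), and 1 region alone had an FDR over 1e-07. A gene without a region is therefore called not listed below, since its level under that floor is unknown.

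The sequences below were taken from gaps between neighboring regions that held the motif written in capitals. They come from 4 of the 10 domains with the most marked bases, and from the largest domain with no 10A region (MYBPC1). The domains are described further on, and the gaps were looked at after the values were seen. Each is 61 bases of the plus strand of GRCh38, read from the reference genome. The capitals mark the AP-1 motif (TGACTCA on either strand), the binding sequence of FOS and JUN family dimers. Each motif lay in a gap of 300 to 600 bp between 2 marked regions.

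ANXA2 intron, chr15:60374876-60374936: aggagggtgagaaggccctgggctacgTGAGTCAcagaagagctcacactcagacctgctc
Intergenic, nearest BLID, chr11:122186598-122186658: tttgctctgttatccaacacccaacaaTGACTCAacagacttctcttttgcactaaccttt
Intergenic, nearest THBS1, chr15:39204260-39204320: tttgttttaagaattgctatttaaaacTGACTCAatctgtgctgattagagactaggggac
PYGB intron, chr20:25255523-25255583: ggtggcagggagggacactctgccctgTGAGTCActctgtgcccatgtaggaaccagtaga
MYBPC1 intron, chr12:101604321-101604381: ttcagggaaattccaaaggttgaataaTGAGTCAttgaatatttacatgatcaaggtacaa

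The gap in ANXA2 separated regions with log2 fold changes of 6.25 and 7.70. The gap near BLID separated 4.60 from 7.05, and the one near THBS1 separated 7.21 from 4.96. The PYGB gap had 7.02 on one side and 3.48 on the other. The MYBPC1 gap, in a domain with no 10A region, lay between 5.37 and 5.05. Over the 9 leading domains off chromosomes 8 and 18, 11 of 56 gaps between neighboring regions held the motif, and these lay in 7 of the domains. In 3 of the 7 the motif lay only in gaps of 700 to 1000 bp.

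The regions were short and covered little of the genome. Their width had a median of 500 bp, with the middle of the distribution between 300 and 800 bp and a maximum of 5 kb. In all, 2594 regions (16.8%) were a single window of 200 bp, and 71 were wider than 4 kb. Together they covered 10.95 Mb, or 0.361% of chromosomes 1 to 22 and X. The 10A shCTRL landscape covered 9.03 Mb and the DCIS shANCO1 landscape 11.9 Mb. The median log2 fold change was 4.09, which is 16.98-fold over input, and the middle of the distribution lay between 3.41 and 5.196. The highest was 9.99, which is 1015-fold. Width and strength were only loosely related, with Spearman's rho of 0.27 across the 15480 regions.

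The regions were divided evenly between gene starts and the rest of the genome. A transcription start site (TSS) of a protein-coding gene lay within 1 kb of 7733 regions, 49.95% (95% Wilson interval 49.2 to 50.7%, which covers counting error over regions only). Of the others, 3557 (22.98%) lay in introns, 3789 (24.5%) between genes and 401 (2.59%) on exons. The regions between genes lay a median of 59.2 kb from the nearest TSS, and 1379 of them were over 100 kb away. In the 10A shCTRL landscape 37.6% of regions were at a TSS, and in DCIS shANCO1 46.2%. The deposited gene annotation, which flags promoters by a distance that is not stated, put 10450 regions (67.5%) at a promoter. Its promoter flags named 9833 genes, of which 7620 matched protein-coding symbols of RefSeq, 1463 long noncoding RNAs and 282 microRNAs.

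Around gene starts the mark formed 2 shoulders with a dip between them. Counted over 19617 protein-coding genes at their 5′ ends, coverage by regions was 13.05% at 400 bp before the start and fell to 9.43% at 100 bp before it. Downstream it reached its maximum of 18.8% at 300 bp into the gene, and it was 7.49% at 1 kb. The 10A shCTRL landscape had the same shape at a lower level, with a maximum of 11.6% at 300 bp and 3.62% at 100 bp before the start. In DCIS shANCO1 the maximum was 20.1%.

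**Figure D1:**
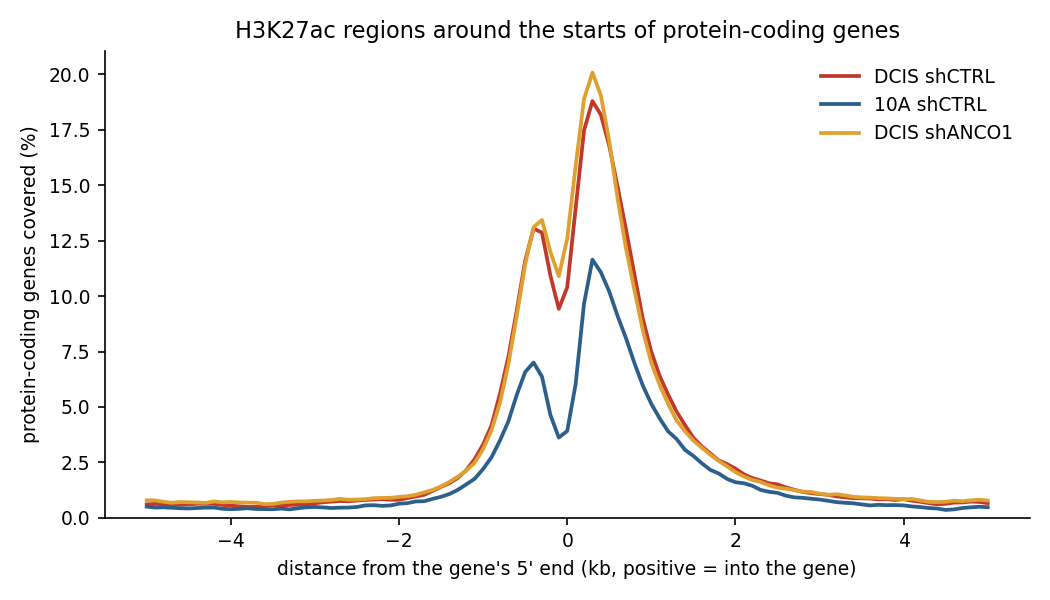
Share of 19617 protein-coding genes whose position at each distance from the 5′ end (x axis, kb, positive into the gene) lay inside an H3K27ac region (y axis, %), with 1 line per landscape. DCIS shCTRL reaches 18.8% at 0.3 kb and dips to 9.43% just before the start, and 10A shCTRL has a maximum of 11.6%.

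The neighborhoods of gene starts differed in base composition from the rest. In the 500 bp at the midpoint, G+C had a median of 58.6% at TSS regions and 44.8% at regions away from a TSS, against 40.9% over all 500-bp tiles of the genome. CpG dinucleotides numbered a median of 29 and 5 in those windows. The motif GGGCGG, which SP and KLF factors bind, was in 57.0% of TSS regions, 13.9% of the others and 6.43% of tiles. The ETS motif CCGGAAGT was in 4.62%, 0.568% and 0.237%. The cyclic AMP response element TGACGTCA was in 1.22%, 0.284% and 0.176%. All motifs were searched on both strands.

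The CCAAT box, the site of NF-Y, was less frequent at TSS regions (38.6%) than in tiles (54.1%). The promoters of 2 marked genes are printed to show how the mark lay over such boxes in promoters that hold them, and they are not typical of marked promoters. Each line is the 250 bases before the RefSeq start in GRCh38, written in the direction of transcription, with GGGCGG and CCAAT motifs of either strand in capitals. CCNB1 encodes the mitotic cyclin B1 and DDIT4 a stress-induced inhibitor of mTOR.

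CCNB1, chr5:69166900-69167149, plus strand: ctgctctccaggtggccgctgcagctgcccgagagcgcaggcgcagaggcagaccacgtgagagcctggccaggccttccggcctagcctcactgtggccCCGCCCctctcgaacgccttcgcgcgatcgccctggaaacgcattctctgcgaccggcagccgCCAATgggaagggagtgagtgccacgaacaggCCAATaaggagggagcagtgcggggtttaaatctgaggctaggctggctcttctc
DDIT4, chr10:72273674-72273923, plus strand: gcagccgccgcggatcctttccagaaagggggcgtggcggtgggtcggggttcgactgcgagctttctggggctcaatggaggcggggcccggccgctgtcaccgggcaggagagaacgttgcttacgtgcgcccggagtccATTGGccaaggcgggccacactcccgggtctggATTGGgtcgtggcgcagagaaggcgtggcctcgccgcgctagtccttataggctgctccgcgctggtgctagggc

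Both promoters held 2 CCAAT boxes, and CCNB1 also held 1 GGGCGG motif. Regions covered 49 of the 250 bases at CCNB1 and all 250 at DDIT4. The log2 fold change at the CCNB1 start was 2.95, under the 10th percentile of the landscape (2.97), and the region over the DDIT4 start reached 5.26 with the second-lowest FDR of all, 4.26e-41. Across 35116 RefSeq promoters of this length, 32.0% held a CCAAT box and 42.6% a GGGCGG motif. The promoters of the marked basal genes KRT5 and SFN held 0 CCAAT boxes.

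Fold change over input varied with base composition. TSS regions had a median log2 fold change of 3.76 and regions away from a TSS 4.69, a difference of -0.93. Spearman's rho between G+C and log2 fold change was -0.61 over all regions and -0.69 away from a TSS. In windows of 40 to 50% G+C the medians were 4.62 at 1263 TSS regions and 4.69 at 3340 others, and at 50 to 60% they were 3.72 at 2798 and 3.58 at 1708. The difference was then -0.07 and 0.13. By FDR the order was the other way round, with a median of 1.33e-11 at TSS regions and 6.33e-11 away from them.

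The fold changes had 2 humps with a trough between them. From 6.25 to 6.5 on the log2 scale there were 15 regions at a TSS and 13 away from one, while 2048 lay between 6.5 and 7.25. Those 2048 had a median G+C of 38.4%, 80.8% were away from a TSS and 24.0% were single windows. Of the 472 regions between 5.5 and 6.25 none was a single window, their median width was 1150 bp, and their median FDR was 7.97e-16 against 6.91e-11. Read counts in input, which would show whether these regions had few input reads, were not part of the tables, and the origin of the 2 humps was not tested.

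**Figure D2:**
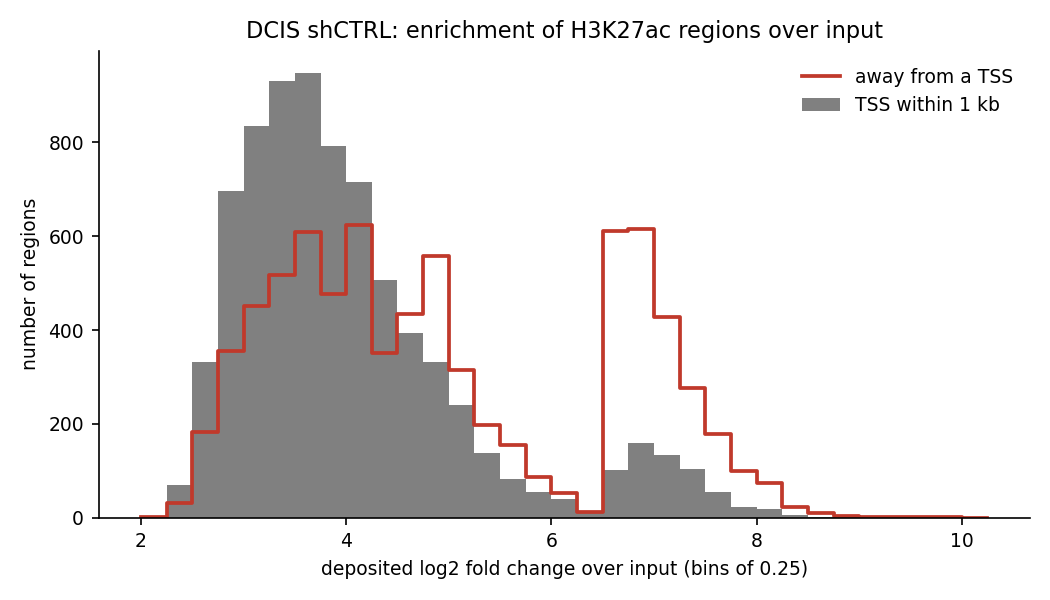
Number of DCIS shCTRL regions (y axis) by deposited log2 fold change over input (x axis, bins of 0.25), with regions that have a TSS within 1 kb as gray bars and the others as a red line. Both distributions have a main hump between 3 and 5 and a second one that starts at 6.5, and the second is larger away from a TSS.

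Away from gene starts the AP-1 motif was more frequent beside the regions than at their midpoints, a position effect looked for after the values were seen. At the midpoints of regions away from a TSS, 12.0% of 500-bp windows held TGACTCA, against 5.48% at TSS regions and 7.40% of all tiles. In bins of 100 bp, 2.26% of positions next to the midpoint held it and 4.68% at 300 to 400 bp from the midpoint, averaged over both sides, with 1.90% at the outermost bin. Of 2299 gaps of 100 to 1000 bp away from a TSS, 25.1% (23.4 to 26.96%) held it in the 500 bp at their midpoint. In 1767 gaps at a TSS the share was 6.40% (5.35 to 7.63%).

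The other motifs in the same gaps are given with their shares at region midpoints away from a TSS and in tiles. The cyclic AMP response element was in 1.09%, 0.284% and 0.176%. RUNX (TGTGGTT) was in 13.2% of gaps away from a TSS, 10.03% of regions there and 9.34% of tiles. TEAD (GGAATG) was in 33.4%, 28.04% and 24.99%. The motif ACANNNTGT, which the glucocorticoid receptor binds, was in 16.96%, 13.7% and 14.7%. The forkhead motif TGTTTAC was in 7.70%, 7.31% and 7.64%. The grainyhead motif AACCGGTT, which the epithelial factors GRHL1 to GRHL3 bind, was rare, with 0.304%, 0.245% and 0.0616%. At gaps that lay at a TSS, 78.7% held GGGCGG, and 71.0% held a TSS itself. The GCCNNNGGC motif of TFAP2 was in 21.5% of gaps away from a TSS and in 49.3% of gaps at one.

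**Figure D3:**
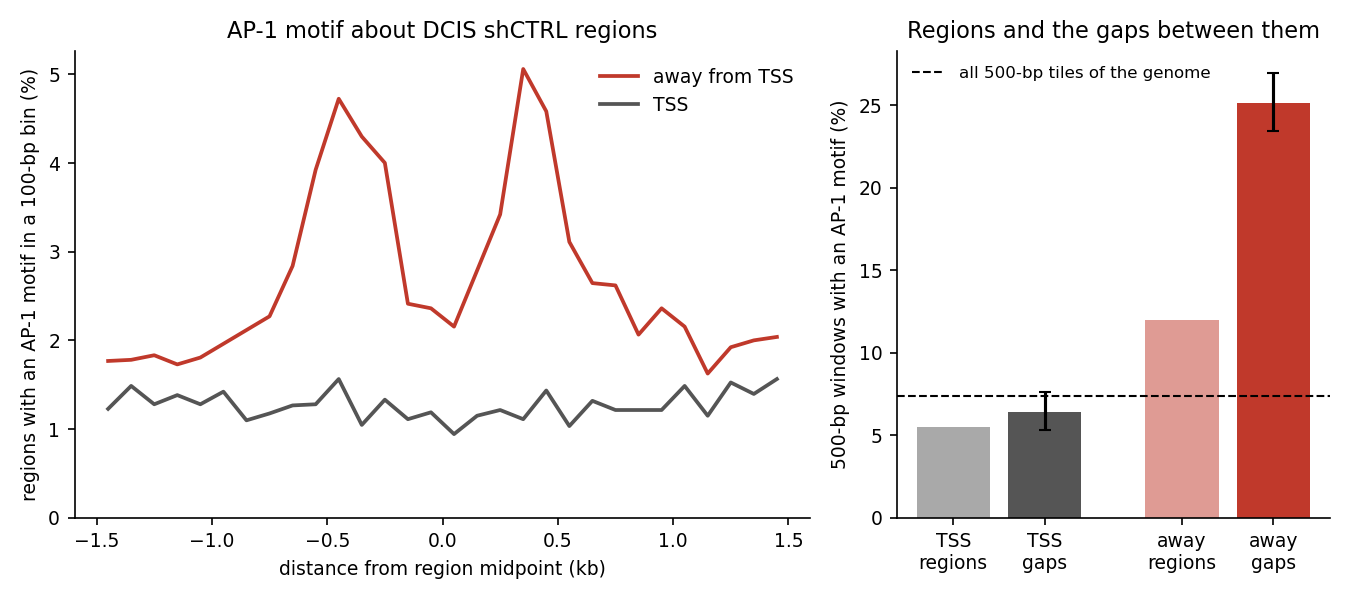
Left, share of DCIS shCTRL regions with the AP-1 motif in each 100-bp bin (y axis, %) by distance from the region midpoint (x axis, kb). Right, share of 500-bp windows with the motif at region midpoints (pale) and in the gaps between neighboring regions (dark, bars show the Wilson 95% interval), with all tiles of the genome as the dashed line; away from a TSS the gaps reach 25.1% and the midpoints 12.0%.

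AP-1 content differed with sharing between landscapes more than with strength. In 4 equal groups by rising log2 fold change, regions away from a TSS held the motif in 11.4%, 11.8%, 13.4% and 11.3%. Those that overlapped a 10A shCTRL region held it in 15.3% (14.0 to 16.8%) and those that did not in 10.4% (9.58 to 11.2%). For overlap with DCIS shANCO1 the shares were 14.2% and 8.37%. Shared regions were also wider, with medians of 600 bp against 400 bp for 10A shCTRL and 600 bp against 300 bp for DCIS shANCO1.

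At gene level, 6882 of 19617 protein-coding genes had a region within 1 kb of a TSS, 35.1% (34.4 to 35.8%). Fewer cells with the mark and less mark per cell cannot be told apart in such bulk samples. The share of 35.1% is the one beside which each gene list is set below. The lists and their members were chosen with earlier results of these data known. A list share above 35.1% is therefore a description and no test. It was 26.3% in 10A shCTRL, 36.3% in DCIS shANCO1 and 48.3% in 10A shANCO1. A gene's strength is the log2 fold change of the region that shares most bases with its start. At TSS regions this value had a Spearman's rho of -0.36 with G+C. Values above 6.5 fall in the second hump, whose origin was not tested. The order of genes by this value is therefore not read as an order of acetylation. Over the 6882 genes its median was 3.79, with quartiles of 3.30 and 4.45. Counting the gene body and 5 kb before it, 41.3% of genes had a region.

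The basal mammary program was marked. Of 12 basal genes 9 were listed at their start, or 75%, beside the 35.1% of all genes. The keratin gene KRT5 had a log2 fold change of 4.42 in a 900-bp region. The gene for the laminin-332 chain LAMA3 had the highest value of the list, 7.15, in a 500-bp region, and that for its partner LAMB3 had 4.11. The LAMA3 locus had only 0.5 kb marked, against 3.9 kb in 10A shCTRL. The integrin genes ITGA6 and ITGB4, whose products pair in hemidesmosomes and bind that laminin, had 5.81 and 4.10 in regions of 2200 and 2800 bp. The lowest value was 2.92 at CDH3, which encodes P-cadherin. SFN, which encodes 14-3-3 sigma, had 3.88.

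Not listed were KRT14, COL17A1 and TP63. TP63, the master regulator of the basal layer, had no region within 16.2 kb of a start but 3.6 kb of marked sequence inside its locus. The nearest region to a KRT14 start was 37.0 kb away. KRT14 and KRT17 have near-identical copies in the genome, and how reads with several matches were counted is not given in the sources used here, so values at KRT14 and KRT17 are uncertain.

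General epithelial genes were also marked. The list held 8 genes and 6 were listed (75%). CDH1, which encodes E-cadherin, had a log2 fold change of 3.60 in a single 200-bp window. CLDN4 and CLDN7, tight junction claudins, had 3.34 and 3.38 in regions of 1500 and 1100 bp. RAB25, a GTPase of epithelial recycling endosomes, had the highest value, 3.68, and the epithelial ETS factor ELF3 the lowest, 2.64. EPCAM had 2.95. All 6 lay under the median of marked genes, and 2 of them, CDH1 and ELF3, were single windows. ST14 and OVOL1 were not listed. When the TSS had to lie inside the region, 1 of the 8 was listed, beside 15.6% of all genes. None of the 8 was listed in 10A shCTRL, and 3 of them (EPCAM, CLDN4 and CLDN7) were in 10A shANCO1.

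Luminal genes divided by class. The keratin genes KRT8 and KRT18, which encode a filament pair, had 4.84 and 4.51 in regions of 2800 and 1800 bp, and KRT7 had 3.60 in 3200 bp. KRT19 was not listed, with its nearest region 4.9 kb from the start. Of the 8 hormone-sensing genes 2 were listed (25%), XBP1 at 4.86 and the luminal transcription factor gene GATA3 at 4.59. The receptor genes ESR1 and PGR were not, nor were FOXA1, SPDEF and TFF1. The estrogen and progesterone receptor genes lacked a region within 91.5 kb and 379 kb of a start, and the labelled line is negative for both receptors.

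Markers of cell types that a mammary epithelial culture should lack were not listed. None of 7 fibroblast, 5 endothelial, 5 leukocyte and 4 neuronal or glial genes was listed at a start, nor were 4 liver and red cell genes. COL1A1, PDGFRA, CDH5, PTPRC and ALB were among them. PECAM1 had 9.6 kb of marked sequence inside its locus but none within 4.06 kb of a start. Contractile genes of myoepithelium were partly listed, 4 of 9. ACTA2, which encodes smooth muscle actin, had the highest value, 7.77, and CALD1 6.84. TPM1 had 2.35, near the floor, and MYH11, CNN1, TAGLN, MYLK and OXTR were not listed.

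Cell junction and differentiation genes went apart. Of 10 desmosome genes 6 were listed. The cadherin genes DSC3 and DSG3 had 7.37 and 7.31, DSC2 and DSG2 4.56 and 4.43, and the lowest was PERP at 3.32. With the TSS inside the region 1 of the 10 was listed. DSP, which encodes desmoplakin, missed the limit with its nearest region 1.13 kb from a start. None of 12 terminal differentiation genes was listed, among them IVL, FLG and the SPRR genes, and the nearest region to the IVL start lay 449 kb away. Of 10 mesenchymal genes SNAI1 alone was listed, at 2.78. VIM, FN1, CDH2, ZEB1 and TWIST1 were not.

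**Figure D4:**
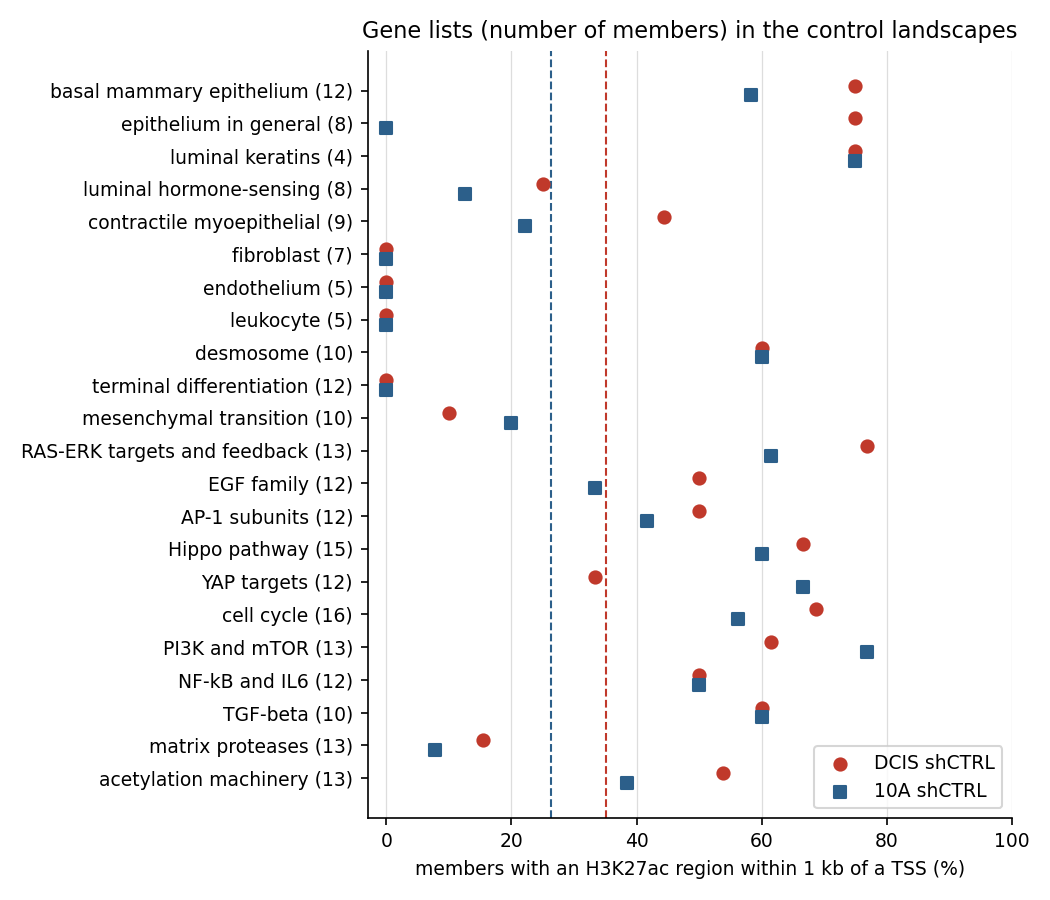
Share of the members of 22 gene lists with an H3K27ac region within 1 kb of a TSS (x axis, %) in DCIS shCTRL (red circles) and 10A shCTRL (blue squares), with list sizes in parentheses and the share of all protein-coding genes as dashed lines of the same colors (35.1% and 26.3%). Basal, general epithelial and RAS-ERK genes lie at 75% or above in DCIS shCTRL, and terminal differentiation, fibroblast, endothelial and leukocyte genes at 0. The lists were chosen with earlier results of these data known.

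Targets and feedback genes of the RAS-ERK pathway, which carries growth factor signals from RAS to the nucleus, were among the most often marked. Of 13 genes 10 were listed, or 76.9%. The ERK phosphatase gene DUSP6 had 4.97 in a 3600-bp region and DUSP4 3.87 in 3300 bp. The Sprouty genes SPRY2, SPRY1 and SPRY4, inhibitors of receptor signaling to RAS, had 4.65, 3.75 and 3.37. SPRED1 had the highest value, 7.10 in 2000 bp, and SPRED2 the lowest, 2.77. The ETS factor genes ETV4 and ETV5, which ERK induces, had 3.78 each. DUSP5, EPHA2 and EPHA4 were not listed. The list was also often marked in the other landscapes. In 10A shCTRL 8 of the 13 were listed (61.5%, beside 26.3% of all genes). The shares were 84.6% in DCIS shANCO1 and 92.3% in 10A shANCO1, beside 36.3% and 48.3% of all genes.

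Among ligands of the EGF receptor, EPGN had 7.39, AREG 5.85 in a 2800-bp region, EREG 4.99 and TGFA 3.22. HBEGF, BTC, NRG1 and EGF itself were not listed. Of the receptors, ERBB3 had 3.48 and EGFR 2.99 in a 300-bp region, and ERBB2 and ERBB4 were not listed. In all, 6 of 12 genes of the family were listed (50%). The AP-1 subunit genes also numbered 6 of 12. FOSL2 stood highest at 7.74 in 3300 bp, followed by JUNB at 4.39, JUND at 4.09, FOS at 3.81 and JUN at 3.50, and FOSL1 was lowest at 2.94. FOSB, ATF3, BATF, BATF3, MAFF and MAFK were not listed. With the TSS inside the region, 0 of the 12 AP-1 genes were listed.

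The Hippo pathway, which restrains the coactivators YAP and TAZ, had 10 of 15 genes listed. YAP1 and WWTR1, which encode YAP and TAZ, had 3.70 and 3.78 in regions of 1900 and 1500 bp. Of the DNA-binding partners, TEAD1 had 6.93, the highest of the list, TEAD4 3.49 and TEAD2 2.99. The kinase genes STK3 and LATS1 had 6.67 and 5.48, and the adaptor gene SAV1 was lowest at 2.97. LATS2, STK4, TEAD3, VGLL1 and VGLL3 were not listed. Of 12 YAP target genes, 4 were listed, 33.3% beside the 35.1% of all genes. They were AMOTL2 at 4.33, TGFB2 at 3.90, AJUBA at 3.23 and AXL at 2.97. CCN1, CCN2 and ANKRD1, the targets most used as readouts, were not listed. In 10A shCTRL and in DCIS shANCO1 8 of the 12 were listed (66.7%), beside 26.3% and 36.3% of all genes. The share in 10A shANCO1 was 83.3%, beside 48.3% of all genes.

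Cell cycle and signaling lists were above the 35.1% of all genes in 4 of 5 cases. Cell cycle genes were listed in 11 of 16, with CCND1, which encodes cyclin D1, highest at 5.12 and CCNE1 lowest at 2.89 in a single window. CDKN2A and CDKN2B were not listed, with nearest regions 411 and 449 kb away. DNA copy number was not measured here, so an unmarked locus and a missing one cannot be told apart. CDKN1A was not listed either. Of 13 PI3K and mTOR genes 8 were listed, from RICTOR at 6.76 down to RHEB at 3.11, and PIK3CA, AKT1 and MTOR were not. Of 12 NF-kB and IL6 genes 6 were listed, with REL at 5.66 and NFKB1 at 3.04, and IL6 itself was not. LIF, an IL6 family cytokine, had 3.92 in a 4700-bp region. The TGF-beta list had 6 of 10, with the receptor gene TGFBR2 at 5.12 in 3300 bp and SMAD3 lowest at 3.18, but with the TSS inside the region 0 of the 10 were listed. Matrix proteases had 2 of 13, PLAT at 5.08 and MMP14 at 2.60, and MMP1, MMP9, PLAU and PLAUR were not listed at a start.

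Listed genes of the enzymes that write and remove the mark, its readers and corepressors had log2 fold changes under the median of marked genes. Of 13 genes 7 were listed, from the deacetylase genes HDAC2 at 3.66 and HDAC1 at 3.65 to HDAC3 at 2.55, and EP300 had 2.93. CREBBP, BRD2 and BRD3 were not listed. With the TSS inside the region 2 of the 13 were listed. Of 6 genes around ANCO1, NCOA3, which encodes the coactivator AIB1 that ANCO1 binds, had 5.07, while NCOA2 was lowest at 3.26. ANKRD11, the gene of ANCO1 itself, had no region within 69.3 kb of a start in DCIS shCTRL. In DCIS shANCO1 its start had 4.97. ANKRD11 was not listed in 10A shCTRL either, and all 6 genes of this list were listed in 10A shANCO1. Of 9 genes that the study singled out as changed by the knockdown in these same cells, 2 were listed at baseline, S100A2 at 5.08 among them. IL1A, IL1B, SERPINB2, HBEGF, PLAU, F3 and IVL were not.

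Replication-dependent histone genes were often listed and had high log2 fold changes as a class, which was noticed after the values were seen. Of 69 such genes 56 were listed (81.2%), with a median of 5.46 beside 3.79 for all marked genes and a maximum of 8.36. In 10A shCTRL 66.7% were listed. These genes are near-identical copies, so reads may be shared among them, and values of single genes are not given.

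The 10 regions with the largest fold change among the 6336 with at least 5 windows comprised 6 between protein-coding genes, 2 in introns and 2 at protein-coding starts. The top 3 lay on chromosome 8 around POU5F1B, over the long noncoding RNA genes CASC21, CCAT1 and CCAT2, with log2 fold changes of 9.99, 9.58 and 9.53. The first of these also had the lowest FDR of the landscape, 6.53e-43. All 3 overlapped a 10A shCTRL region, at 3.30, 4.44 and 4.30 there. Next came a region in LINC01376, chr2:19118901-19123400, at 9.30 and 235 kb from OSR1. A region at chr2:59690001-59693500, 857 kb from BCL11A, had 9.10. In an intron of CHRM3, the gene of the muscarinic receptor M3, chr1:239717901-239720900 had 9.05. None of these 3 overlapped a region of either 10A group, and all 3 were listed in DCIS shANCO1, at 5.07, 5.60 and 6.59.

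A pair of the 10 lay at protein-coding starts. The TTI2 start, which it shares with the small nucleolar RNA gene SNORD13, had 9.04 in 800 bp, and the start of the ephrin gene EFNA5, at chr5:107668301-107672300, had 8.79 in 4000 bp. The remaining 2 were chr3:30548301-30551800, 54.8 kb from TGFBR2, at 8.91, and chr17:72612601-72616500 in LINC00511 at 8.76. Both overlapped a 10A shCTRL region, at 3.87 and 2.996. The 10 widest regions ran from 4800 to 5000 bp, and 2 of them covered protein-coding starts. ENO1, which encodes the glycolytic enzyme enolase, had a 5000-bp region at 6.32 and TGIF1, which encodes a SMAD corepressor, a 4800-bp region at 3.79. Others lay in CLDN10, 18.2 kb from its nearest start, at 5.16, and just past the start of CCL20, the gene of a chemokine, at 8.25. The 10A shCTRL region at CCL20 had 8.35, measured over the input of that line. The other 6 were at LINC01588, beside DDIT4 and DNAJB12, and 91.7 to 424 kb from ERRFI1, KRR1 and ADGRL2.

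Regions within 10 kb of each other were stitched into 9402 domains, of which 5807 held a single region. The 470 domains with the most marked bases, the top 5%, held 26.4% of all marked bases, with at least 3.5 kb each and a median span of 11.45 kb. Of these 227 (48.3%) contained a protein-coding start.

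The domain with the most marked sequence was at DDIT4, chr10:72241101-72279400, with 31.3 kb marked in 9 regions. The third, chr10:72292501-72338800, followed it at a short distance and lay 15.6 kb from DNAJB12, with 26 kb in 14 regions. In the same spans 10A shCTRL regions covered 11.8 and 7.8 kb, and DCIS shANCO1 regions 26.4 and 27.7 kb. The second, chr22:46035301-46089300, 58.1 kb from the Wnt ligand gene WNT7B, had 29.1 kb in DCIS shCTRL and 21.5 kb in 10A shCTRL. The fourth, near POU5F1B, had 25.6 and 21.8 kb.

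ANXA2, the gene of a membrane-binding annexin, had 25.2 kb over chr15:60365201-60409500 against 3.1 kb in 10A shCTRL. The domain at chr15:39172301-39214800, 366 kb from THBS1, had 20.3 against 6.4 kb. PYGB, the gene of brain glycogen phosphorylase, had 19.5 against 2.9 kb over chr20:25222501-25256200. The largest ratio between the lines among the 10 was at chr2:121173601-121211700, 73.5 kb from the epithelial factor gene TFCP2L1, with 18.5 kb against 1.4 kb. The domains next to SAP30BP and BLID had 17.7 against 7.2 kb and 17.5 against 13.4 kb. All 10 had more marked sequence in DCIS shCTRL than in 10A shCTRL, but they were chosen for being large in DCIS shCTRL, so the direction is no finding.

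**Figure D5:**
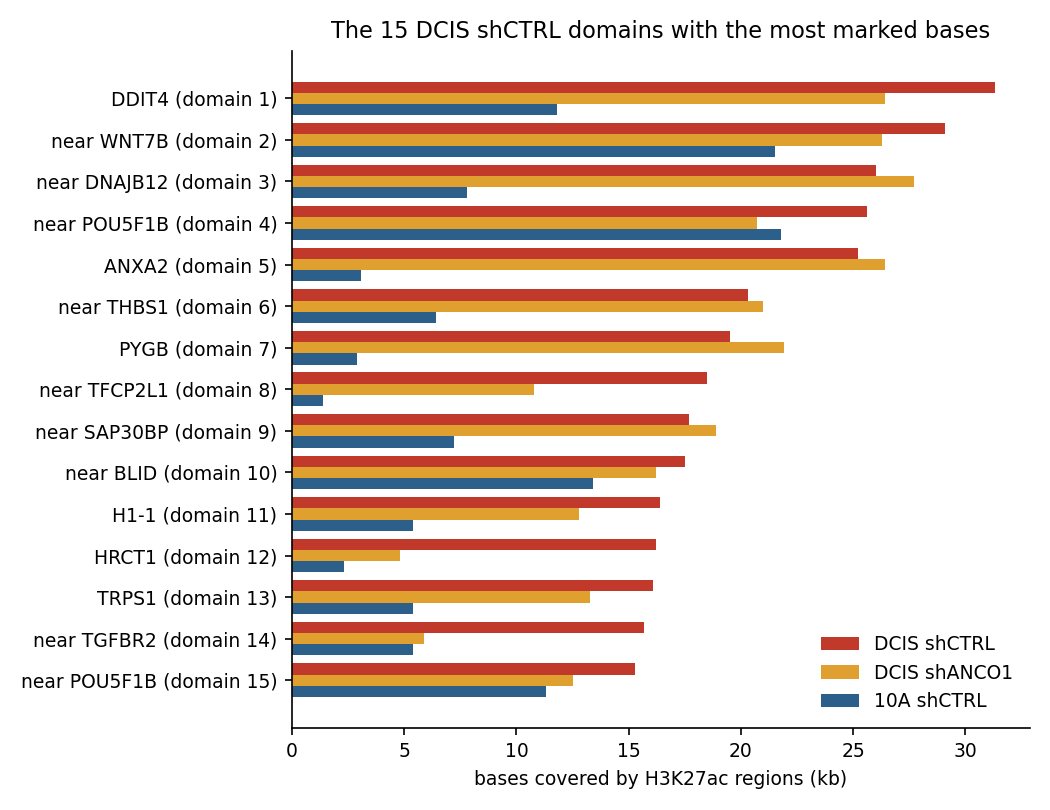
Bases covered by H3K27ac regions (x axis, kb) within the 15 DCIS shCTRL domains with the most marked bases, for DCIS shCTRL, DCIS shANCO1 and 10A shCTRL, each named by a gene that starts inside it or by the nearest one. Coverage in DCIS shCTRL falls from 31.3 kb at DDIT4 to 15.3 kb, and the domain near TFCP2L1 has 1.4 kb in 10A shCTRL.

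By gene rather than by domain, RAD51B, a long DNA repair gene, had the most marked sequence, 47.5 kb in 37 regions, or 5.19% of its length with 5 kb before it. TRPS1, a GATA-type repressor gene of breast epithelium, had 29.1 kb and 6.6 kb in 10A shCTRL. ACTN4, the gene of an actin crosslinker, had 22.7 kb, or 25.5% of its length, and 5.7 kb in 10A shCTRL. RUNX1 had 21.4 kb and 13.6 kb. These genes were picked after their values were seen.

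Of the 15480 regions, 6591 overlapped a 10A shCTRL region by at least 1 bp, 42.6% (41.8 to 43.4%). They met 45.5% of the 15490 regions of 10A shCTRL. The share was 52.8% (51.7 to 53.9%) at TSS regions and 32.3% (31.3 to 33.4%) away from them. These intervals cover counting error over regions only and no variation between libraries. Width went with sharing. Among single windows 22.2% of TSS regions and 19.7% of the others were shared, and among regions of 2100 to 5000 bp 84.4% and 58.0%. Strength in DCIS and in 10A had a Spearman's rho of 0.50 over the shared regions. No test over libraries can be made between the lines from these tables, and depth per library is unknown, so a region listed in one line and not in the other cannot be told apart from one under the other table's floor.

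The 10A knockdown landscape held many of the regions that 10A shCTRL lacked. Of the 15480 regions, 69.4% overlapped a region of the larger 10A shANCO1 landscape, which has 28607 regions, and 70.1% overlapped 1 of the 2 10A landscapes. The same held for genes. Of the 6882 marked genes 4504 (65.4%) were also marked in 10A shCTRL and 2378 were not, and of these 2378 all but 297 were marked in 10A shANCO1. A gene missing from 10A shCTRL was thus mostly listed in the larger 10A shANCO1 landscape. Whether the knockdown raised its mark, or it lay under the floor in 10A shCTRL, was not tested. In the other direction 663 genes were marked in 10A shCTRL and not in DCIS shCTRL, and 308 of them were marked in DCIS shANCO1.

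Of 36 list genes marked in DCIS shCTRL and not in 10A shCTRL, 9 were marked in neither 10A group. Over all genes the counts were 297 of 2378. The 9 list genes were KRT17, the epithelial genes CDH1, ELF3 and RAB25, SNAI1, EREG, ERBB3, CCNE1 and PLAT. Of these CCNE1, ELF3 and CDH1 were single windows. The statement concerns 1 kb around a start and not the locus. The EREG locus had 2.9 kb marked in DCIS shCTRL, 2.8 kb in 10A shCTRL and 5.6 kb in 10A shANCO1. At CDH1 the values were 0.9, 0.5 and 1.3 kb. The loci of KRT17, ELF3, RAB25 and ERBB3 had no region of either 10A group. A further 27 list genes were missing from 10A shCTRL but marked in 10A shANCO1. They included ITGA6 and CDH3 of the basal list, EPCAM, CLDN4, CLDN7 and GATA3, the signaling genes JUN, SPRY1, SPRED2, ETV4, ETV5, LIF and TGFB3, the Hippo genes STK3, SAV1, NF2, TEAD2 and TEAD4, and the chromatin genes HDAC3 and NCOA2, with PLK1, AURKB, TPM1, TPM2, DSC2 and DSC3. ETV4 and ETV5 had their nearest 10A shCTRL regions 60.4 and 171 kb away. Going the other way, 22 list genes were marked in 10A shCTRL and not in DCIS shCTRL. Of these COL17A1, TEAD3, CCN1, F3, NT5E, EPHA2, IL1A, CDKN1A, DSP and PKP2 were marked in DCIS shANCO1. STK4, LATS2, VGLL3, ARHGEF17, DUSP5, ZEB2, SNAI2, IL1B, PIK3CA, MTOR, IL6 and SMAD7 were not.

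The 297 genes marked in DCIS shCTRL and in neither 10A group had a median log2 fold change of 3.60 and a median width of 400 bp, against 600 bp for all marked genes. No region of either 10A group lay in the gene or the 5 kb before it at 201 of them, and 197 (66.3%) were marked in DCIS shANCO1. The following were picked from them after their values were seen, for their marked sequence. SOX9, a transcription factor gene of mammary progenitors at chr17:72121020-72126416, had 6.0 kb marked over its short locus and 3.36 at its start. A second domain 61.2 kb from SOX9 had 6.6 kb marked in DCIS shCTRL, 4.0 kb in DCIS shANCO1 and none in either 10A group. ITPRID1 had 12.5 kb in its locus with 8.60 at its start in a 3200-bp region, and in DCIS shANCO1 its locus had 0.3 kb. The netrin receptor gene UNC5C had 13.8 kb against 0.2 kb in 10A shCTRL, with a 4600-bp region at its start. The eyes-absent gene EYA1 and CHRM3 had 9.5 and 9.3 kb, and no 10A region of either group. AKR1C2, the gene of a steroid-reducing enzyme with close paralogs, had 8.03 kb and 7.09 at its start, and 0.2 kb in DCIS shANCO1. Reads may be shared among the AKR1C genes.

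Of the top 470 domains 370 (78.7%) contained a 10A shCTRL region, against 53.0% of all 9402. The 100 that did not included the one near MYBPC1, with 12.7 kb, and those at UNC5C, PRSS12, LIF and KRT15. Of these 100, 42 had a 10A shANCO1 region. LIF had 7.7 kb in DCIS shCTRL and 10.6 kb in DCIS shANCO1, and KRT15, which encodes a basal keratin, had 6.2 kb in both.

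The landscape of DCIS shANCO1, which shares the line, met more of the regions than 10A shCTRL did. The overlap was 71.8% (71.1 to 72.5%) of DCIS shCTRL regions and 64.6% of the 16692 of DCIS shANCO1. It was 82.1% at TSS regions and 61.6% away from them. The larger 10A shANCO1 landscape met 88.8% and 50.1% of the same classes. Of the 6882 marked genes 6212 (90.3%) were marked in both. In the authors' direct test of DCIS shANCO1 against DCIS shCTRL H3K27ac, 23.6% of all 44790 tested regions were higher in the knockdown and 4.86% lower at an FDR under 0.05. Read at the region sharing most bases, 12.4% of the 15480 regions were higher and 9.73% lower. At TSS regions the shares were 5.73% and 2.34%, and away from them 19.2% and 17.1%. That test uses the same 3 DCIS shCTRL H3K27ac libraries that listed the regions, so a tilt toward lower calls among them is built in and is not read as a result.

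A set of 3644 regions (23.5%) was in neither 10A shCTRL nor DCIS shANCO1. These had a median width of 300 bp, 34.03% were single windows and 28.8% had a TSS within 1 kb. The 5873 regions in all 3 landscapes (37.9%) had a median width of 700 bp, 5.47% were single windows and 63.8% had a TSS. The 5245 shared with DCIS shANCO1 and not 10A shCTRL had a median log2 fold change of 3.69, lower than the 4.41 of the first group and the 4.20 of the second.

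Region density per chromosome went with gene density, with Spearman's rho of 0.76 over 23 chromosomes. It was 5.11 regions per Mb over all chromosomes, highest on chromosomes 19 and 17 at 12.0 and 10.3 per Mb, and lowest on chromosome X at 1.03. On chromosome X 9.14% of protein-coding genes were marked, against 28.3 to 43.3% on the others. Relative to 10A shCTRL, which had nearly the same total, chromosome 19 had 1.65 times as many regions, 22 had 1.47, 17 had 1.43, 16 had 1.322 and 8 had 1.31. Chromosomes 20 and 18 had 0.711 and 0.764 times as many. The landscapes also differed in kind of region, with 7733 TSS regions in DCIS shCTRL and 5818 in 10A shCTRL. Away from a TSS there were 7747 and 9672. DNA copy number of the lines was not measured here. The part of copy number or of the kind of region in these ratios was not tested.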

How the data were processed

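H3K27ac ChIP-seq was analysed from 4 deposited tables of H3K27ac against input and 1 table of DCIS shANCO1 against DCIS shCTRL. According to the methods, alignment to GRCh38 used BWA and Rsubread, duplicates were dropped with SAMtools, and csaw compared windows between groups of 3 libraries. The deposited values are the log2 fold change of a representative window, the FDR (an adjusted p-value) and window counts per merged region. The window filter, normalization and merging distance are not given in the sources used here, and depth per library is unknown, so its effect on what is listed cannot be measured. A table of the 10A knockdown against control was not used here.

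Regions with FDR under 0.05 and direction up were kept. Starts, exons and gene bodies came from GENCODE release 44 (protein-coding, basic transcripts), and genome sequence from GRCh38. Python 3.11.15, pandas and pysam were used. Intervals on shares are Wilson 95% intervals over regions or genes, which are not replicates. The functions were tested on simulated regions with known answers. Gene lists and the members were chosen with earlier results of these data known. Named genes were the list members with the highest and lowest values and the defining members not listed, the 10 strongest regions of at least 5 windows, the 10 widest regions, the 10 largest domains, the 3 regions of lowest FDR, and list members marked in 1 control landscape alone. Genes named outside this rule are said to be so, and some members that the rule names are not reported here. Alternatives varied the FDR, the TSS window, the number of windows, the merging and stitching distance, the overlap and the motif window.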

Additional observations from a re-analysis of the deposited data

How the results depend on the processing

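The number of enriched regions stayed at 15480 with an FDR under 0.01 or a log2 fold change of at least 1. It fell to 8996 with an FDR under 1e-10 and to 6336 with at least 5 windows. The share of regions at a TSS was 49.95% and became 18.2% when the TSS had to lie inside the region, 54.0% within 2.5 kb, 53.7% with an FDR under 1e-10, 53.0% with at least 5 windows, 53.9% after merging within 1 kb and 67.5% by the deposited promoter flag. The share of marked genes was 35.1% and became 15.6%, 36.1% and 24.99% for a TSS inside the region, within 2.5 kb and an FDR under 1e-10, and 31.6% with the outermost 5′ end alone. With the TSS inside the region, 5 lists above the share of all genes fell under it: general epithelium (1 of 8), AP-1 subunits (0 of 12), TGF-beta (0 of 10), desmosome (1 of 10) and acetylation machinery (2 of 13). Overlap with 10A shCTRL was 42.6% and became 24.0% with reciprocal overlap of at least 50 percent, 34.04% with an FDR under 1e-10 in both and 60.8% with at least 5 windows. It was 70.1% against both 10A groups together, an alternative added after seeing the data. Overlap with DCIS shANCO1 was 71.8% and became 51.4%, 79.9% and 89.2% under the same 3.

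The AP-1 share away from a TSS was 12.0% and became 4.23% in 200 bp, 30.5% in 1000 bp and 12.8% with an FDR under 1e-10, beside 2.99% and 14.3% of genome tiles of 200 and 1000 bp. The difference in median log2 fold change between TSS and other regions was -0.93 and became -1.04 with at least 5 windows and -1.21 with an FDR under 1e-10. Within G+C bands, added after seeing the data, it was -0.069 at 40 to 50 percent and reversed to 0.13 at 50 to 60 percent. The top 5% of domains held between 24.3% and 28.5% of marked bases under the alternatives tried.

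No paired analysis was possible because each deposited region carries 1 summary value and none for single libraries. Leaving out each replicate could not be run for the same reason.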
